A study of Homo sapiens with 9 samples.

Results

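Imprinted genes, followed by symbol through the RNA-seq counts of 3 pancreatic cancer cell lines, are the subject here. They were H19, IGF2, MEG3, DLK1, PEG3, PEG10, MEST, NNAT, SNRPN and GRB10, which are 10 of the 42717 genes counted, and all 10 were found in the deposited counts. The lines were S2-007, S2-028 and S2-020, established sublines of the human pancreatic ductal adenocarcinoma line SUIT-2, each sequenced as 3 libraries from untreated cells kept in DMEM with 10% inactivated fetal bovine serum. In the study, S2-007 cells carry maspin, the serpin it is about, in nucleus and cytoplasm, S2-028 cells mainly in the cytoplasm, and S2-020 cells hold little of it. SERPINB5, the maspin gene, was at 212, 6.56 and 27.7 CPM (counts scaled by library size after TMM normalization) in S2-007, in S2-020 and in S2-028. Each line is a single subline, so its libraries show the spread within that subline, and as nothing in the labels says that they came from separate cultures, the p-values measure only the spread between these libraries, which may be technical. The counts add up both alleles of a gene, and which parental copy was read was not measured.

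Imprinted genes are transcribed mainly from a single parental copy, because DNA methylation laid down in the egg or the sperm marks a control region of the maternal or of the paternal copy. Many lie in clusters where a paternally expressed growth-promoting gene sits beside a maternally expressed noncoding RNA, as IGF2 does beside H19 and DLK1 beside MEG3. PEG3, PEG10, MEST, NNAT and SNRPN are read mainly from the paternal copy, and GRB10 from the maternal or the paternal copy depending on the tissue. Most of these genes are active in the embryo and placenta and are lowered in adult tissue, and several return to high levels in tumours.

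The start regions of the called members (the call is defined with the counts below) with an entry in the RefSeq promoter table of GRCh38.p14 are shown. DNA methylation sits at CG dinucleotides, and these data do not measure it. The windows were chosen by transcript start and CG count, and whether they lie in an imprint control region was not examined. Each runs from 250 bases before to 50 after a transcript start, 5′ to 3′, with every CG in capitals, and where a gene had several starts the one with the most CG is given. Of the 10 members, 5 had an entry.
H19, chr11:2001217-2001516, minus strand: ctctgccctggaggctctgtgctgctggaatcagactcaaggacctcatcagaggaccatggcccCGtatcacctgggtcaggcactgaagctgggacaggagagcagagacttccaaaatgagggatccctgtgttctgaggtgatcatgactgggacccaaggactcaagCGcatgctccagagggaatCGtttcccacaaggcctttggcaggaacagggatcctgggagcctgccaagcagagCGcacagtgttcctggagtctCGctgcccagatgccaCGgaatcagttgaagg
MEST, chr7:130491835-130492134, plus strand: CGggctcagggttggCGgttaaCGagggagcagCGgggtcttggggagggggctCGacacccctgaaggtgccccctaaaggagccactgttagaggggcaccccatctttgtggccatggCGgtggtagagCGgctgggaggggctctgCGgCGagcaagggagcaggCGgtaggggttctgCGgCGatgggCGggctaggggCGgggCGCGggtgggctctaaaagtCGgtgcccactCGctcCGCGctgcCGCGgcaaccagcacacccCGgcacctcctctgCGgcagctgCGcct
SNRPN, chr15:24954737-24955036, plus strand: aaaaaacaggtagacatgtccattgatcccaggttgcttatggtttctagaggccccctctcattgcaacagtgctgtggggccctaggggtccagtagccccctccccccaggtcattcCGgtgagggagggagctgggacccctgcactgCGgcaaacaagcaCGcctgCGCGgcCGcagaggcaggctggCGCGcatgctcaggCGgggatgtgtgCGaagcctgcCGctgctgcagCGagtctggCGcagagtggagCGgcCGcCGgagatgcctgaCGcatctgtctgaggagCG
GRB10, chr7:50792825-50793124, minus strand: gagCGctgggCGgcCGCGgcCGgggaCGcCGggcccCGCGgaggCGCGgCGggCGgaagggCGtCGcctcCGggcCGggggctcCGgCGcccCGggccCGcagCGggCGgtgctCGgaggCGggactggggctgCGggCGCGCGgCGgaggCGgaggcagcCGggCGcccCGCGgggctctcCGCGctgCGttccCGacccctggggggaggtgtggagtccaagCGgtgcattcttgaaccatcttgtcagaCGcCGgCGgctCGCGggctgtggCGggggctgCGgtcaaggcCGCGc
The H19 window held 6 CG, a number reached or passed by 66.3% of the 35116 windows of this length, against a median of 14 over all of them. MEST held 25, SNRPN 18 and GRB10 49, which 32.0%, 44.5% and 1.60% of windows reached or passed. GRB10 thus had the densest of the shown windows and H19 the sparsest. The MEG3 window with the most CG held 19.

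Libraries held 60328748 to 86253923 counts, with medians in S2-020, S2-007 and S2-028 of 75685674, 72534872 and 61237397. Libraries of the same line differed by a chi-square per gene of at least 7.95, so none was a copy of another. Among genes with 1 to 20 counts, 74.6% to 76.1% had an even count in every library, so most low counts moved in steps of 2. No member was at or under 3 counts in any library, the limit below which a value was not read (counting error only). This limit takes each count as independent, which counts in steps of 2 are not. All 6 epithelial markers examined (KRT7, KRT8, KRT18, KRT19, EPCAM and CDH1) were present in every line, with a summed level of 9543 to 10077 CPM in S2-007, 4309.7 to 5428 in S2-020 and 15163 to 17769.9 in S2-028. Most of the epithelial sum was KRT8 and KRT18. In S2-028 against S2-007, 4 of the 6 were called higher, while EPCAM (log2 fold change -0.32) and KRT19 (-0.13) were lower and not called. The summed level of the 8 mesenchymal markers, nearly all of it VIM, was 1380.2 to 1614, 3092 to 3482 and 397 to 484 CPM in S2-007, in S2-020 and in S2-028. The single mesenchymal markers did not share an order. VIM and CDH2 were called higher and COL1A1 and PDGFRA lower in S2-020 than in S2-007, 2 and 2 of 7 tested with a median log2 fold change of -0.08. The fibroblast collagen COL1A1 was at 2.14, 1.32 and 3.63 CPM in S2-007, in S2-020 and in S2-028, while COL1A2 and COL3A1 averaged at most 0.260 CPM in a line. Summed markers of endocrine and neuronal cells stayed between 1.42 and 2.09 CPM in all libraries. TTR, a hepatocyte gene, was at 0 in all 9 libraries, and the summed hepatocyte markers, 12.5 to 16.9 CPM, came mostly from TF. PTPRC, the pan-leukocyte gene, was at 0.301, 0.186 and 0.293 CPM in the same order, and the leukocyte sum, 39.8 to 44.5 CPM in S2-007 and 9.18 to 10.4 and 11.3 to 12.5 in S2-020 and S2-028, came mostly from CD68.

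Some of the imprinted genes differed between lines, in both directions, and each count below has the share of all genes called beside it. A gene was called where edgeR's quasi-likelihood test gave a Benjamini-Hochberg adjusted p under 0.05 over all genes tested and the difference was at least 1.5-fold either way. In S2-028 against S2-007, 9 members passed the expression filter (DLK1 did not), and 3 of them were called, PEG10 and H19 higher in S2-028 and GRB10 lower, where 18.4% of all genes tested were called. In S2-020 against S2-007, 5 of 10 were called against 21.6% of all genes, with IGF2, H19 and PEG10 higher in S2-020 and MEST and SNRPN lower. In S2-028 against S2-020, 5 of 10 were called against 22.2% of all genes, with PEG10 and MEST higher in S2-028 and IGF2, H19 and GRB10 lower. MEG3, DLK1, PEG3 and NNAT were called in none of the 3 comparisons. The median log2 fold change of the members tested was -0.20, -0.05 and 0.13 in these comparisons, beside 0.0020, -0.05 and 0.02 over all genes. Each pair of comparisons shares the libraries of a line, so they are not independent of each other. The epithelial sum and VIM also differed between all 3 lines, and their part in these differences was not tested.

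**Figure D1:**
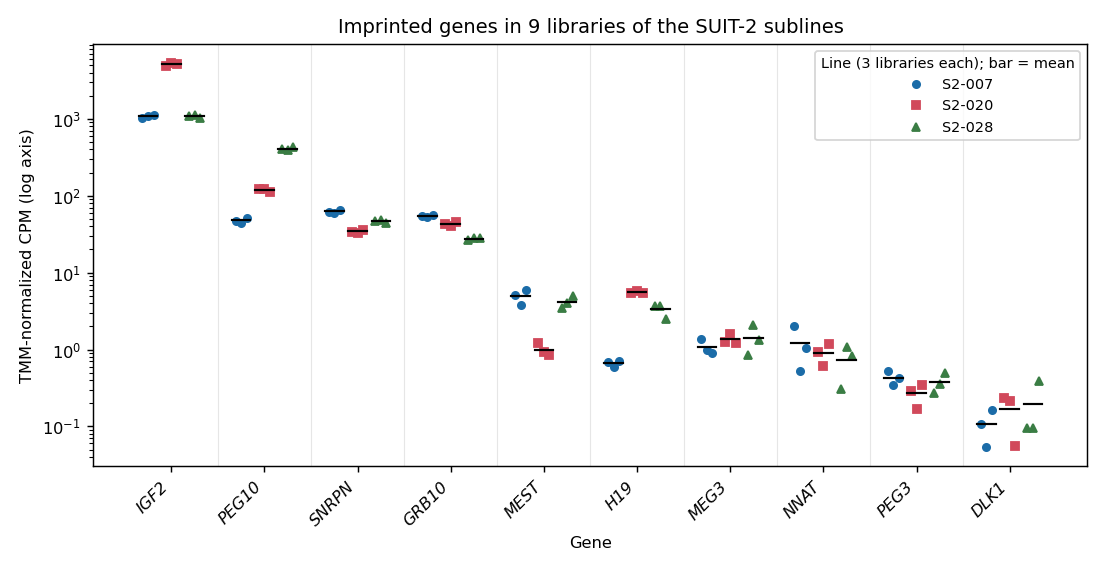
TMM-normalized CPM (log axis) of the 10 imprinted genes in each of 9 libraries; symbols mark the line, each point is 1 library and bars are means of 3. IGF2 lies at or above 1015 CPM in every line and highest in S2-020, PEG10 rises from S2-007 to S2-020 to S2-028, and DLK1 lies at or under 0.394 CPM.

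IGF2, which encodes the fetal growth factor insulin-like growth factor 2, was by far the most abundant member, and S2-020 cells held 4.65 times as much of its mRNA as S2-007 and 4.73 times as much as S2-028 cells. IGF2 (NCBI gene 3481) spans chr11:2129117-2149566 in GRCh38.p14. Its level was 4899.6, 5293 and 5169.6 CPM in the 3 S2-020 libraries, 1015, 1079 and 1138 in S2-007 and 1083, 1135 and 1024 in S2-028. The S2-020 libraries lay above all others, while those of S2-007 and S2-028 overlapped. In S2-020 it took 0.465% to 0.510% of all counts and ranked between 2 and 4 among all genes by count, whereas in S2-007 and S2-028 its rank was between 54 and 75. On the log2 scale, with its standard error (SE), the difference was 2.22 (SE 0.0438, edgeR adjusted p = 1.13e-18) in S2-020 against S2-007, a 4.65-fold difference, and -2.24 (SE 0.0461, edgeR adjusted p = 6.67e-18) in S2-028 against S2-020. Between S2-028 and S2-007 no difference was called, at 0.0080 (SE 0.0549, edgeR adjusted p = 0.942) with a 95% interval of -0.11 to 0.12. The readthrough gene INS-IGF2, whose exons are 79.96% IGF2 exon in the GENCODE 44 annotation, had the same order, with 17.8% to 18.6% as many counts as IGF2 in every library, so reads may have been split or counted in both. VIM, at 3219.9 CPM in S2-020 against 1467 in S2-007 and 420.0 in S2-028, was also highest in S2-020, whereas COL1A1 was lowest there, and the part of these markers in the IGF2 level was not tested.

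H19, the maternally expressed noncoding RNA downstream of IGF2 and host of miR-675, was scarce beside its neighbour and followed another order. H19 (NCBI gene 283120) spans chr11:1995176-2001266, and its start window was shown above. It was at 0.695, 0.591 and 0.706 CPM in S2-007, 5.43, 5.70 and 5.44 in S2-020 and 3.69, 3.73 and 2.53 in S2-028, and no line overlapped another. S2-020 was thus highest and S2-007 lowest. On the log2 scale H19 stood at 3.02 (SE 0.196, edgeR adjusted p = 1.16e-10) in S2-020 and 2.32 (SE 0.253, edgeR adjusted p = 1.92e-07) in S2-028, each against S2-007. S2-028 was below S2-020, at -0.73 (SE 0.175, edgeR adjusted p = 0.00196), but without replicate 3 of S2-028 this difference was -0.56 (edgeR adjusted p = 0.0126), under the fold threshold. Per kilobase of exon (the union of GENCODE 44 exons), the level of IGF2 was 717 ± 28.1 CPM per kb in S2-020 and that of H19 was 1.60 ± 0.0443. In S2-028 the same levels were 151 ± 7.80 and 0.957 ± 0.197, and in S2-007 151 ± 8.61 and 0.192 ± 0.0183 CPM per kb. S2-028 cells had more H19 than S2-007 cells at an IGF2 level that was not called different. IGF2-AS, antisense to IGF2, had the order of H19 rather than that of IGF2, with 2.22 ± 0.424 CPM in S2-007, 7.96 ± 0.575 in S2-020 and 4.85 ± 1.58 in S2-028 (SD, n = 3), on the log2 scale 1.81 (SE 0.166) higher in S2-020 and 1.13 (SE 0.233) higher in S2-028 than in S2-007. Without replicate 3 of S2-028, the lower level of IGF2-AS in S2-028 than in S2-020 was -0.47 and no longer called, against -0.71 (SE 0.188) with it. How the counting treated strand is not given in the sources used here, so reads of IGF2 and IGF2-AS over shared bases cannot be told apart.

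PEG10, a gene derived from a retrotransposon that is needed for placental development and is raised in several tumours, climbed from S2-007 through S2-020 to S2-028. PEG10 (NCBI gene 23089) spans chr7:94656325-94669695. The libraries were at 47.4, 44.7 and 51.8 CPM in S2-007, 123, 121 and 111 in S2-020 and 399.6, 392 and 430.2 in S2-028. No libraries of different lines overlapped, and each step was called. S2-028 had 8.52 times the level of S2-007, on the log2 scale 3.09 (SE 0.0682, edgeR adjusted p = 1.75e-18). The change from S2-007 to S2-020 was 1.28 (SE 0.0628, edgeR adjusted p = 1.56e-12), and from S2-020 to S2-028 it was 1.78 (SE 0.0564, edgeR adjusted p = 3.46e-15). SGCE, the epsilon-sarcoglycan gene that starts next to PEG10 on the opposite strand and is also read from the paternal copy, moved less. SGCE was at 16.98 ± 0.692, 15.3 ± 1.196 and 26.7 ± 1.04 CPM in S2-007, in S2-020 and in S2-028 (SD, n = 3), which gave 0.65 (SE 0.0884, edgeR adjusted p = 3.65e-06) on the log2 scale in S2-028 against S2-007 and -0.18 (SE 0.0924, edgeR adjusted p = 0.135) in S2-020 against S2-007. In S2-020 the PEG10 level was raised while SGCE was not called, and the interval of the SGCE difference was -0.38 to 0.01. PPP1R9A, a maternally read gene of the same cluster that encodes the actin-binding neurabin, had the same order as PEG10, at 5.77 ± 0.221, 15.04 ± 1.43 and 28.2 ± 1.56 CPM, on the log2 scale 1.35 (SE 0.113) in S2-020 and 2.29 (SE 0.103) in S2-028 against S2-007.

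MEST, which encodes an enzyme of the alpha/beta-hydrolase fold made in embryonic mesoderm, was lowest in S2-020. MEST (NCBI gene 4232) spans chr7:130486175-130506465. It was at 1.23, 0.938 and 0.837 CPM in S2-020, 5.07, 3.79 and 5.89 in S2-007 and 3.50, 4.06 and 4.94 in S2-028, so the S2-020 libraries lay below all others and those of S2-007 and S2-028 overlapped. S2-020 was at -2.33 (SE 0.220, edgeR adjusted p = 3.31e-08) on the log2 scale against S2-007, 5.02-fold lower, and S2-028 stood 2.06 (SE 0.227, edgeR adjusted p = 3.43e-07) above S2-020. Between S2-028 and S2-007 the difference of -0.24 (SE 0.189, edgeR adjusted p = 0.400) was not called, with an interval of -0.63 to 0.16. The summed epithelial markers were lowest in S2-020 as well, and their part in the MEST level was not tested. Other genes cover 27.6% of MEST's exon bases on the opposite strand, among them MESTIT1, which was at 0.175, 0.238 and 0.235 CPM in S2-007, in S2-020 and in S2-028 and was called in no comparison.

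GRB10, an adaptor protein that binds the insulin and IGF1 receptors and restrains their signaling, fell from S2-007 to S2-028. GRB10 (NCBI gene 2887) spans chr7:50590068-50793453. Its level was 54.8, 52.3 and 56.5 CPM in S2-007, 42.9, 39.8 and 45.4 in S2-020 and 26.2, 28.2 and 28.4 in S2-028, with no overlap between lines. The fall was called in S2-028 against S2-007, at -0.98 (SE 0.0717, edgeR adjusted p = 3.94e-10), 1.97-fold lower, and against S2-020, at -0.63 (SE 0.0754, edgeR adjusted p = 1.02e-06). In S2-020 against S2-007 the adjusted p passed but the fold did not, at -0.38 (SE 0.0645, edgeR adjusted p = 5.62e-05). No other gene overlaps the exons of GRB10 in GENCODE 44, and 0.117% of its 31-base words occur elsewhere in the transcripts.

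SNRPN, which encodes SmN, a spliceosomal Sm protein best known from neurons and from the Prader-Willi region, had the order S2-007, S2-028, S2-020. SNRPN (NCBI gene 6638) spans chr15:24823637-24978723. The libraries held 62.2, 59.4 and 66.0 CPM in S2-007, 46.4, 48.7 and 44.3 in S2-028 and 34.0, 33.0 and 36.0 in S2-020, and none overlapped between lines. The S2-020 level was called lower than that of S2-007, at -0.89 (SE 0.0632, edgeR adjusted p = 4.17e-10). Both steps through S2-028 stayed under the fold threshold, with -0.42 (SE 0.0673, edgeR adjusted p = 2.86e-05) against S2-007 and 0.44 (SE 0.0702, edgeR adjusted p = 3.67e-05) against S2-020. SNRPB, the paralog that serves the same place in the Sm ring of most cells, was at 30.5 ± 2.12 CPM per kb of exon in S2-007, 31.8 ± 1.399 in S2-028 and 38.5 ± 0.669 in S2-020, where SNRPN was at 18.3 ± 0.978, 13.6 ± 0.641 and 10.1 ± 0.438. The SNRPB level passed SNRPN's in each line, and its log2 fold change in S2-020 against S2-007, 0.31 (SE 0.0533, edgeR adjusted p = 8.25e-05), had the opposite sign and was under the threshold. SNURF, encoded by the same bicistronic transcript, was called lower in S2-020 than in S2-007, at -0.90 (SE 0.224, edgeR adjusted p = 0.00286). It was also called higher in S2-028 than in S2-020, at 0.80 (SE 0.228, edgeR adjusted p = 0.00732). Between S2-028 and S2-007 SNURF was not called, at -0.06 (SE 0.216, edgeR adjusted p = 0.888). Its 85 to 199 counts per library come from a gene that shares exons with SNRPN, the rule for shared reads is not given in the sources used here, and 39.5% of SNRPN's 31-base words occur in transcripts of other genes.

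**Figure D2:**
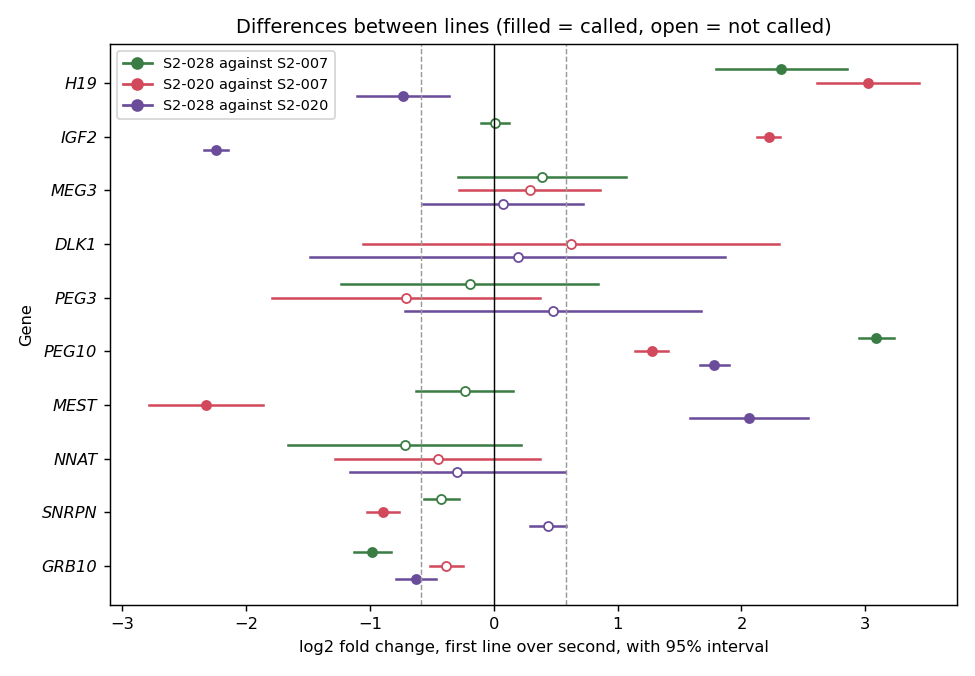
The log2 fold change of each imprinted gene (x axis, first line over second) in the 3 comparisons; bars are 95% intervals from edgeR's test, filled points were called and dashed lines mark 1.5-fold either way. IGF2 and MEST differ between S2-020 and both other lines, whereas the intervals of MEG3, DLK1, PEG3 and NNAT all include 0.

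The remaining members were barely expressed, and no difference between lines was called. MEG3, the maternally read noncoding RNA with growth-suppressing activity, was at 1.35, 0.994 and 0.910 CPM in S2-007, 1.24, 1.61 and 1.21 in S2-020 and 0.838, 2.08 and 1.34 in S2-028. DLK1, its paternally read neighbour and a Notch-like membrane protein of preadipocytes and endocrine tissue, was at 0.107, 0.0538 and 0.163 CPM in S2-007, 0.237, 0.216 and 0.0558 in S2-020 and 0.0967, 0.0940 and 0.394 in S2-028, which is 4 to 24 counts per library. The libraries of all lines overlapped for both MEG3 and DLK1. PEG3, a zinc-finger protein with roles in maternal behaviour and apoptosis, held 0.521, 0.349 and 0.421 CPM in S2-007, 0.292, 0.168 and 0.349 in S2-020 and 0.274, 0.360 and 0.492 in S2-028. The highest S2-020 library of PEG3 lay level with the lowest of S2-007, and the log2 fold change of -0.71 (SE 0.517, edgeR adjusted p = 0.321) was not called. NNAT, a small proteolipid of the developing brain and the endocrine pancreas, was at 2.04, 0.524 and 1.06 CPM in S2-007, 0.933, 0.601 and 1.19 in S2-020 and 0.306, 1.08 and 0.820 in S2-028. A single S2-007 library was high and a single S2-028 library low, and the lines overlapped. BLCAP, the gene in whose intron NNAT lies, was well expressed at 79.9 ± 0.631, 50.5 ± 5.71 and 48.2 ± 1.98 CPM in S2-007, in S2-020 and in S2-028 (SD, n = 3) and was called lower in S2-020 (-0.69, SE 0.0703, edgeR adjusted p = 8.68e-08) and in S2-028 (-0.73, SE 0.0627, edgeR adjusted p = 5.52e-09) than in S2-007. The intervals of the log2 fold change in S2-028 against S2-007 were wide, -0.29 to 1.06 for MEG3, -1.24 to 0.84 for PEG3 and -1.66 to 0.22 for NNAT, and that of DLK1 in S2-020 against S2-007 was -1.06 to 2.30. The summed endocrine and neuronal markers were low in every line too, at most 2.09 CPM. Of the exon bases of PEG3, 12.9% lie under another gene of the same strand and 39.1% under one of the opposite strand (ZIM2, of the same strand, was at 0.158, 0.105 and 0.0647 CPM in S2-007, in S2-020 and in S2-028). Of those of NNAT, 6.40% lie under BLCAP on the opposite strand. As the treatment of strand is not given, reads of NNAT and BLCAP cannot be told apart there.

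Beyond the 10 members, 44 further imprinted genes were listed, 24 as read mainly from the paternal and 20 mainly from the maternal copy. Which copy was read in these lines, or whether both were, was not measured. In S2-020 against S2-007, 18 of the 20 maternal genes were tested, with 2 higher and 8 lower and a median log2 fold change of -0.54. Among the lower ones, KCNQ1, SLC22A18, OSBPL5, CDKN1C and PHLDA2 (-0.89, SE 0.0716) lie in the same cluster. CPA4 (-1.21, SE 0.400) and KLF14 (-1.84, SE 0.341), also lower, both lie near MEST on chromosome 7. Most of the lower genes thus come from few loci and are not independent of each other. Of the 24 paternal genes 20 were tested, with 4 higher and 2 lower and a median of -0.15. Among all genes the median was -0.05, with 9.57% higher and 12.1% lower. In S2-028 against S2-007, 4 of 17 paternal genes tested were higher and 0 lower, and of 17 maternal genes 2 were higher and 3 lower, beside 10.2% higher and 8.19% lower among all genes. In S2-028 against S2-020 the counts were 5 higher and 3 lower of 20 paternal and 4 higher and 1 lower of 18 maternal genes, beside 12.1% and 10.1% of all genes.

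Among the paternally read genes, PLAGL1, a zinc-finger regulator of the cell cycle and of other imprinted genes, was higher in S2-020 (1.68, SE 0.0845, edgeR adjusted p = 2.16e-12) and in S2-028 (1.17, SE 0.111, edgeR adjusted p = 2.24e-08) than in S2-007. Its level was 12.0 ± 1.38, 39.3 ± 1.53 and 26.9 ± 3.88 CPM in S2-007, in S2-020 and in S2-028 (SD, n = 3), the order of H19. FAM50B was highest in S2-028, at 18.5 ± 0.479 CPM against 9.25 ± 1.49 in S2-007 and 3.60 ± 0.722 in S2-020, and was called in all 3 comparisons. NAP1L5, a relative of the nucleosome assembly proteins, was highest in S2-020, at 5.13 ± 0.141 CPM against 1.75 ± 0.243 in S2-007 and 1.04 ± 0.374 in S2-028. These genes had different highest lines, S2-020 for PLAGL1 and NAP1L5 and S2-028 for FAM50B. Of the maternally read genes, several belong to the KCNQ1 cluster on the chromosome arm of IGF2 and H19. KCNQ1, a potassium channel, was at 5.47 ± 1.24 CPM in S2-007, 0.801 ± 0.170 in S2-020 and 12.3 ± 1.21 in S2-028, on the log2 scale 3.93 (SE 0.178, edgeR adjusted p = 7.45e-13) in S2-028 against S2-020. SLC22A18, an organic cation transporter, fell from 28.7 ± 2.85 CPM in S2-007 to 7.17 ± 0.672 in S2-020 and 6.35 ± 0.783 in S2-028. OSBPL5, a lipid transfer protein, was low in S2-020 (18.3 ± 1.04 CPM) and not called different between S2-028 (42.9 ± 2.44) and S2-007 (45.7 ± 2.61). KCNQ1 was thus highest in S2-028, SLC22A18 in S2-007, and OSBPL5 in S2-007 and S2-028, which were not called apart. CDKN1C, a cyclin-dependent kinase inhibitor there, was low in all lines, at 1.07 ± 0.277, 0.476 ± 0.310 and 1.25 ± 0.264 CPM in S2-007, in S2-020 and in S2-028, and was called lower in S2-020 than in S2-007 (-1.18, SE 0.407, edgeR adjusted p = 0.0254) and higher in S2-028 than in S2-020 (1.38, SE 0.405, edgeR adjusted p = 0.00930). The first call was lost without replicate 1 or 3 of S2-020 or replicate 1 of S2-007 (-1.0006, -0.88 and -0.94) and the second without replicate 1 of S2-028 (1.22). KCNQ1OT1, the noncoding RNA that silences the cluster in cis on the paternal copy, was called in no comparison, on the log2 scale -0.34 (SE 0.0728) in S2-020 against S2-007.

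**Figure D3:**
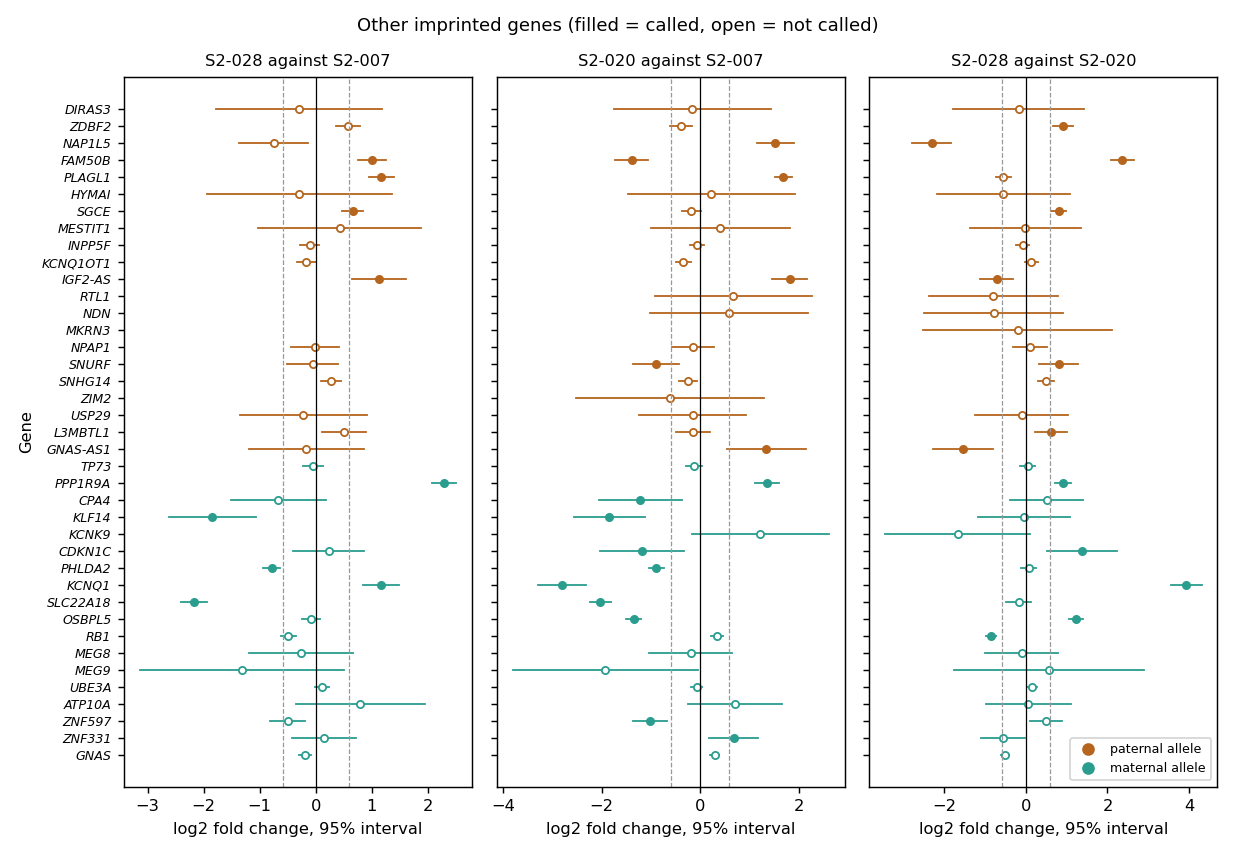
The log2 fold change with its 95% interval of the other imprinted genes that were tested, in 3 panels for the 3 comparisons. Colours give the parental copy under which each gene was listed, and filled points were called. KCNQ1 lies far to the right in S2-028 against S2-020, and SLC22A18 to the left in both comparisons with S2-007.

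IGF2 signals through the IGF1 and insulin receptors, is cleared by IGF2R and is bound by secreted IGF-binding proteins, so the 19 other genes of this axis were read beside it. In S2-020 against S2-007, 5 of the 17 tested were higher and 4 lower, in S2-028 against S2-007 3 and 3, and in S2-028 against S2-020 3 and 7, with medians of 0.05, -0.16 and -0.02, where 21.6%, 18.4% and 22.2% of all genes were called. IGFBP4, an inhibitory binding protein, shared the S2-020 peak of IGF2, at 1467 ± 44.7 CPM against 412 ± 45.6 in S2-007 and 347 ± 8.66 in S2-028 (SD, n = 3), on the log2 scale 1.80 (SE 0.0586, edgeR adjusted p = 2.35e-15) in S2-020 against S2-007. IGFBP3, the main carrier of IGFs in blood, fell from 83.1 ± 6.90 CPM in S2-007 to 11.2 ± 0.856 in S2-020 and 11.0 ± 1.95 in S2-028, on the log2 scale -2.93 (SE 0.0823) and -2.91 (SE 0.108) against S2-007. IGFBP1 was highest in S2-020 and lowest in S2-028, at 208 ± 12.6 and 53.2 ± 9.43 CPM, and at 122 ± 13.3 in S2-007. Binding proteins thus went in different directions in S2-020, the line with the most IGF2. The receptors, picked after their values were seen, also differed in opposite ways, with IGF1R at 30.5 ± 2.84 CPM in S2-007, 51.9 ± 5.26 in S2-020 and 69.0 ± 4.41 in S2-028, and INSR at 28.3 ± 1.37, 15.5 ± 0.333 and 7.76 ± 0.271. S2-028, where GRB10 was lowest, thus had the most IGF1R mRNA and the least INSR mRNA. On the log2 scale these stood at 1.18 (SE 0.0790, edgeR adjusted p = 9.84e-11) and -1.86 (SE 0.0974, edgeR adjusted p = 1.80e-12) against S2-007. IGF2R was also lowest in S2-028, at 157 ± 5.19 CPM against 217 ± 15.6 in S2-007 and 230 ± 1.39 in S2-020. Its difference from S2-007, -0.46 (SE 0.0611), was under the fold threshold. IRS1, a docking protein of the IGF1 and insulin receptors, was lowest in S2-020, at 68.1 ± 3.51 CPM against 152 ± 7.80 in S2-007 and 173 ± 5.83 in S2-028. Its log2 fold change was 1.34 (SE 0.0570, edgeR adjusted p = 2.89e-13) in S2-028 against S2-020. The docking protein IRS2 went the other way and was highest in S2-020, at 192 ± 10.8 CPM against 98.2 ± 1.75 in S2-007 and 108 ± 6.09 in S2-028. Its log2 fold change was 0.93 (SE 0.0545, edgeR adjusted p = 2.23e-11) in S2-020 against S2-007.

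**Figure D4:**
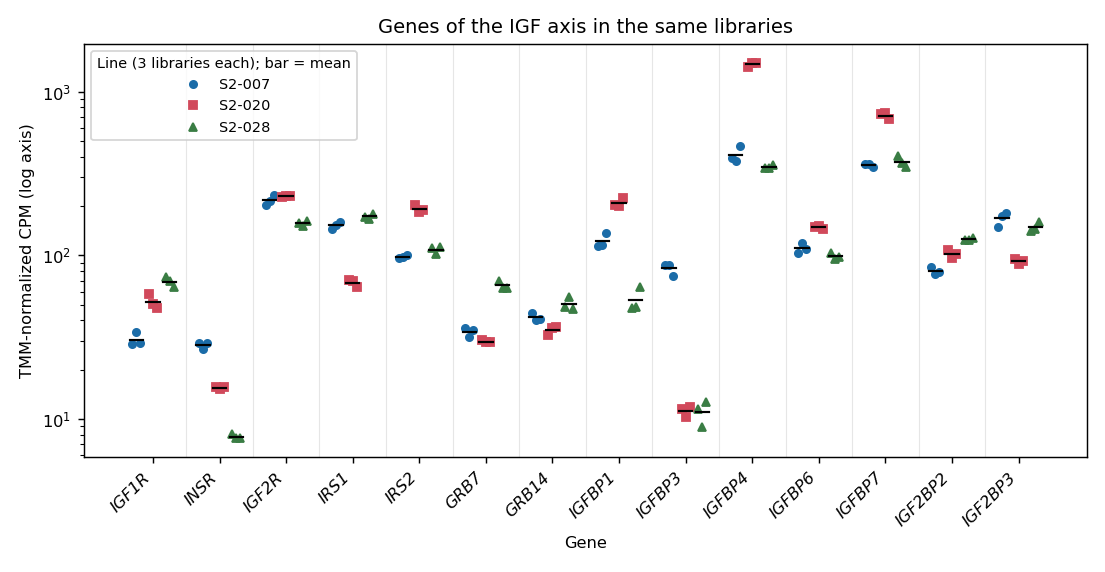
TMM-normalized CPM (log axis) of 14 genes of the IGF axis in each of 9 libraries, marked by line, with bars at the means of 3. IGFBP4, IGFBP7 and IRS2 are highest in S2-020, IGFBP3 is highest in S2-007, and IRS1 is lowest in S2-020.

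Imprints are kept in place by DNA-binding proteins, corepressors and the maintenance methylation machinery. Of 12 genes listed, 8 were tested, and 2 were higher in S2-020 and 2 in S2-028 than in S2-007, with none lower and medians of 0.53 and 0.39, beside 9.57% and 10.2% higher and 12.1% and 8.19% lower among all genes. TRIM28, the corepressor that zinc-finger proteins bring to imprinted control regions, was at 267 ± 16.9 CPM in S2-007, 515 ± 10.4 in S2-020 and 541 ± 25.8 in S2-028 (SD, n = 3), on the log2 scale 0.92 (SE 0.0504, edgeR adjusted p = 9.19e-12) and 1.02 (SE 0.0604, edgeR adjusted p = 1.38e-11) against S2-007. UHRF1, which guides the maintenance methyltransferase to newly made DNA, was higher as well, by 0.87 (SE 0.0561) in S2-020 and 0.81 (SE 0.0684) in S2-028. CTCF, the insulator protein that separates IGF2 from its enhancers on the maternal copy, was the gene of this list called between S2-028 and S2-020, lower in S2-028 at -0.69 (SE 0.0553, edgeR adjusted p = 3.86e-09). Each of the 4 untested genes (ZFP57, DPPA3, NLRP7 and KHDC3L) averaged at most 0.102 CPM in a line.

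The relatives of PEG10 among the retrotransposon-derived RTL genes and of SNRPN among the Sm core genes were read the same way. Of 11 RTL genes, 8 were tested in S2-028 against S2-007, with 4 higher, 0 lower and a median of 0.82, and 9 in S2-020 against S2-007, with 4 higher, 1 lower and a median of 0.59, beside 10.2% and 9.57% higher among all genes. RTL10 was at 32.0 ± 3.94 CPM in S2-007, 108 ± 1.87 in S2-020 and 97.0 ± 8.11 in S2-028 (SD, n = 3), RTL8B at 5.26 ± 0.771, 18.0 ± 1.44 and 20.3 ± 1.09, and LDOC1 at 36.4 ± 2.95, 40.3 ± 0.821 and 75.5 ± 2.01. RTL10 and RTL8B were thus higher in both lines than in S2-007, and LDOC1 in S2-028. RTL8A, at 1.21 (SE 0.0901) in S2-028 against S2-007, is a near-copy of RTL8B and RTL8C, so reads may have been shared among them. RTL1, the imprinted paralog of PEG10 beside DLK1, was at 0.125, 0.205 and 0.117 CPM. PEG10's rise in S2-028 against S2-007, 3.09, exceeded that of each RTL gene tested, and the largest of those was RTL8B at 1.95. Among the 7 Sm core genes, SNRPD2 alone was called and in S2-028 against S2-007 alone, at 0.60 (SE 0.0674, edgeR adjusted p = 2.54e-07), a call lost without replicate 1 of S2-028 (0.57) or replicate 1 of S2-007 (0.55). None of the 7 was called in S2-020 against S2-007, where SNRPN was lower.

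Genes within 1 Mb of each member were counted beside it. Among all genes tested, 9.57% were called higher and 12.1% lower in S2-020 against S2-007, and 10.2% higher and 8.19% lower in S2-028 against S2-007. Around IGF2, 45 neighbours were tested in S2-020 against S2-007, with 7 higher, 7 lower and a median log2 fold change of -0.02. Neighbours thus went both ways, and the higher ones included H19, at 3.02, and INS-IGF2 and IGF2-AS, which overlap IGF2. CTSD, the lysosomal protease cathepsin D, was also among them, at 2.91 (SE 0.0494). Around PEG10, 7 of 15 neighbours were higher in S2-028 than in S2-007 and 0 lower, with a median of 0.44, PPP1R9A at 2.29 (SE 0.103) and the paraoxonase gene PON3 at 1.81 (SE 0.135). In S2-020 against S2-007 the median around PEG10 was -0.14, with 2 higher and 1 lower. The lower one was PON3, at -9.22 (SE 0.469, edgeR adjusted p = 2.62e-12), opposite to PEG10 in that comparison. Called neighbours of PEG10 were thus more numerous in S2-028 than in S2-020, a difference that was not tested. Around MEST in S2-020 against S2-007, 8 of 26 neighbours were lower and none higher, with a median of -0.17 and STRIP2, a subunit of a phosphatase and kinase complex, at -1.64 (SE 0.0837). Around GRB10 in S2-028 against S2-007, none of 8 neighbours was called and their median was 0.25. Around SNRPN in S2-020 against S2-007, 1 of 15 was higher and 2 lower, SNURF among the latter, with a median of -0.20. Near the barely expressed MEG3 and DLK1, 5 of 27 neighbours of MEG3 were lower in S2-028 than in S2-007 and none higher. The lower ones included EML1, a microtubule-binding protein, at -2.27 (SE 0.0997) and DIO3OS at -1.14 (SE 0.170). In S2-020 against S2-007, 2 of 32 neighbours of MEG3 were higher and 7 lower, with a median of -0.08. DIO3 at -2.23 (SE 0.171) and DIO3OS at -2.56 (SE 0.310) were among those lower ones. PEG3 lay in a region rich in zinc-finger genes, where 20 of 64 neighbours were higher in S2-028 than in S2-007 and 1 lower, at a median of 0.44. In S2-020 against S2-007, 10 of 63 were higher and 1 lower, at a median of 0.25. Between S2-028 and S2-020, 2 of 62 were higher in S2-028 and 0 lower, beside 12.1% and 10.1% of all genes. Around NNAT, 3 of 40 were higher and 4 lower in S2-028 against S2-007.

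**Figure D5:**
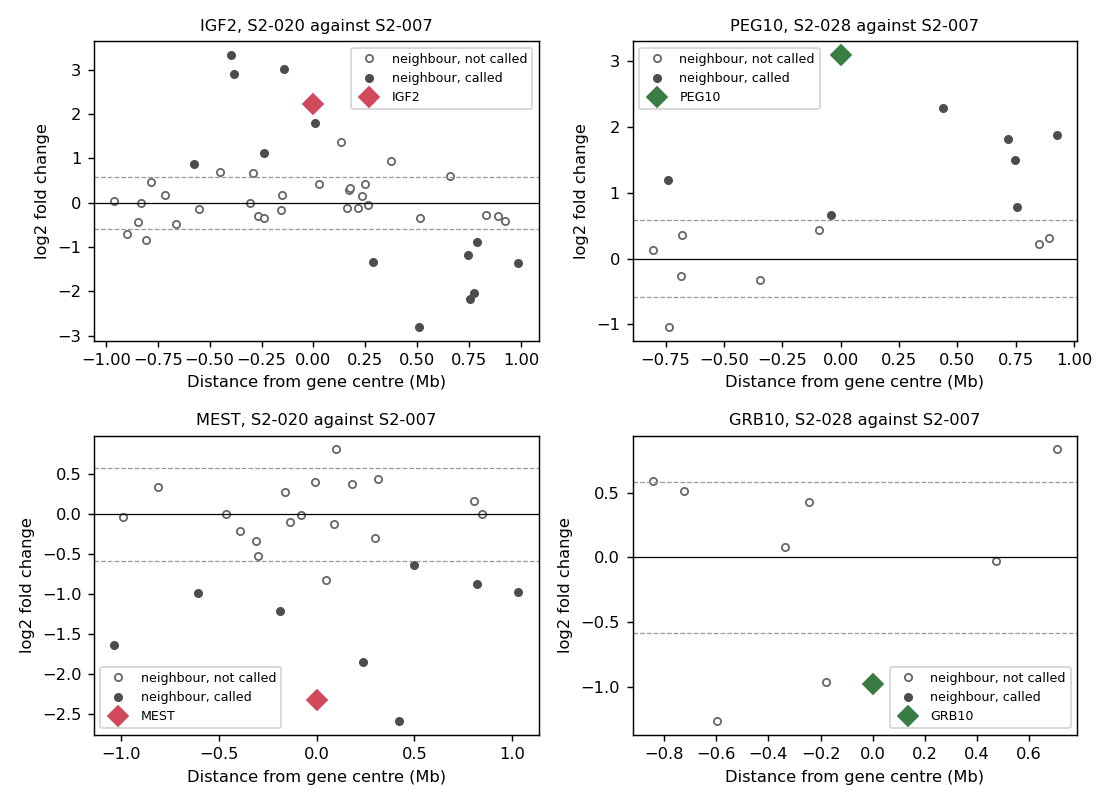
The log2 fold change of the tested genes within 1 Mb of IGF2, PEG10, MEST and GRB10 against their distance from the member's centre (Mb), each in the comparison named above its panel; the diamond is the member, circles are neighbours (filled where called) and dashed lines mark 1.5-fold either way. Of the neighbours of IGF2, 7 were called higher and 7 lower of 45, and of those of PEG10, 7 of 15 were called higher, where 10.2% of all genes were.

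For each member that reached 1 CPM in a line, the genes most like it over the 9 libraries were those with the highest Pearson r of log2 CPM among 28019 genes. These correlations mostly reflect the 3 line means, since each line adds 3 similar libraries, and with this many genes high values arise readily. Beside IGF2 stood INS-IGF2, which shares its exons, and SLC2A6, a sugar transporter of the GLUT family (r = 0.999), at 27.4, 189.7 and 26.5 CPM in S2-007, in S2-020 and in S2-028. Closest to H19 were SOX12, a transcription factor of the SOX family (r = 0.996), and LOC102724149 (r = 0.995). PEG10 was nearest to KLHL5 (r = 0.999) and SPINT2 (r = 0.998), the latter an inhibitor of serine proteases, whose level ran from 241 CPM in S2-007 through 336 in S2-020 to 538 in S2-028. MEST was nearest to GET4 and LINC02253 (r = 0.991 and 0.988), SNRPN to ARHGAP1 (r = 0.994), and GRB10 to EXOC3L4 and KLF13 (r = 0.991 and 0.990). For the low genes MEG3 and NNAT the nearest were LINC02507 and LOC105376126 (r = 0.929 and 0.928) and LOC124901100 and DSC3 (r = 0.978 and 0.943), values that rest on few counts.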

How the data were processed

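Poly(A)-selected, strand-specific RNA-seq libraries of the 3 lines, 3 of each, were assigned to their line by title. Reads were, per the submitters' processing notes, filtered with Trimmomatic 0.39 and aligned with BWA 0.7.17 to GRCh38.p14, and the authors deposited raw counts of mapped reads per gene. The counter, and its treatment of strand and shared reads, are not given in the sources used here. A further 18 columns of values normalized by the authors were not used, nor were 2 lines that name no gene. BWA is not a spliced aligner, which can lower the counts of genes with short exons.

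Counts were tested in R 4.3.3 with edgeR 4.0.16 (filterByExpr at a minimal count of 10 and total of 15, TMM, glmQLFTest) on the 6 libraries of the lines compared, with Benjamini-Hochberg adjustment over all genes tested. The code was tested on simulated data. Printed CPM use TMM factors of all 9 libraries, and log2 CPM a prior count of 2. Standard errors come from the fold change and its F statistic, and 95% intervals from the same. Gene positions were taken from RefSeq GRCh38.p14, which held 99.6% of the gene identifiers, and exon lengths and overlaps from GENCODE 44. Alternatives were DESeq2 1.42.0, its size factors, the likelihood ratio test that the study's text names, no filter, 1 fit of all 9 libraries, the replicate number as a block, and each library left out.

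The members and gene lists were chosen with earlier results of these data known. Named genes were the 10 members, at most 4 called genes of each list with the smallest adjusted p, 2 called neighbours and 2 genes of like pattern per member (1 of them is not reported here), overlapping or adjacent genes of the members, and SERPINB5. Further genes named with the marker lists, the untested maintenance genes, IGF1R, INSR, IGF2R, IRS2, IGFBP7, RTL1, PHLDA2, CPA4 and KLF14 were added after their values were seen.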

Additional observations from a re-analysis of the deposited data

How the results depend on the processing

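The numbers of imprinted genes called, 3 in S2-028 against S2-007 and 5 in each comparison with S2-020, were the same under all 6 other settings, which were DESeq2, its size factors, the likelihood ratio test, no filter, 1 fit of 9 libraries and the replicate number as a block. Leaving out single libraries gave 3, 5 and 4 to 5, the loss being H19 in S2-028 against S2-020. Over all genes, the other settings called 4809 to 5141, 5650 to 6068 and 5716 to 6074 genes, against 4858, 5769 and 5788. Fold changes of uncalled genes changed sign in a few fits. IGF2 in S2-028 against S2-007 was -0.0033 with DESeq2's size factors and -0.0036 with DESeq2, and -0.032 to 0.046 with a library left out. DLK1 in S2-028 against S2-020 was -0.0018 with the replicate block and -0.81 to 0.54 with a library left out. With a library left out, NNAT lay at -0.79 to 0.17 in S2-020 against S2-007 and at -0.67 to 0.072 in S2-028 against S2-020, and MEG3 at -0.30 to 0.34 in S2-028 against S2-020. Over all genes kept, libraries with the same number did not deviate together (correlations of -0.02 to 0.01). A pairing that touched few genes would not show in this measure. The block called 4865, 5650 and 5716 genes. No called gene among the members and the other genes refitted changed sign in any setting. Marker genes, genes of like pattern, IGF2R, IRS2, PHLDA2, CPA4, KLF14, DIO3 and DIO3OS were not refitted. DLK1 had 4 to 24 counts per library and PEG3 14 to 39, which limits their precision. NNAT ranged from 19 to 153 and MEG3 from 52 to 134, and their libraries of the same line also differed widely.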
